A study of Mus musculus with 8 samples.

Results

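Sprouty and Spred genes and their partners that restrain ERK signalling were compared across 4 populations of mouse skeletal myogenic cells. The set held 10 named genes of the 24980 gene symbols measured, namely the Sprouty genes Spry1, Spry2 and Spry4, the Sprouty-related genes Spred1, Spred2 and Spred3, the receptor-like antagonist Il17rd, and the dual-specificity phosphatase genes Dusp4, Dusp5 and Dusp6. They were taken by name, for how paralogs of Spry1 behave next to it, and all 10 were among the 17582 genes with enough counts to be tested. Spry1 had already been singled out by the study on these same libraries for its level across the groups, so its values are given here as a description and without p-values, although it is included in the tallies.

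Growth factors such as FGF, HGF and EGF bind receptor tyrosine kinases, which switch on RAS, RAF, MEK and ERK in turn, and active ERK induces genes that then damp the same route. Sprouty proteins act between the receptor and RAF, and Spred proteins recruit neurofibromin, which switches RAS off. Il17rd, also known as Sef, restrains FGF signalling at the membrane and retains ERK in the cytoplasm, whereas the phosphatases act on ERK itself, Dusp6 in the cytoplasm and Dusp4 and Dusp5 in the nucleus. In muscle, Spry1 is known for the return of satellite cells, which are the resident stem cells of muscle, to quiescence.

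TF cells were freshly isolated from teratomas, the mixed-tissue tumors formed by implanted embryonic stem cells, and TE cells were such progenitors expanded in culture to passage 8. SF cells were satellite cells freshly isolated from adult muscle, and SE cells were satellite cells expanded to the same passage. Each group had 2 biological replicates. The teratomas came from EGFP-labeled E14 embryonic stem cells grown in irradiated and cardiotoxin-injured muscle of immunodeficient, dystrophin-lacking NSG-mdx4Cv mice, so the teratoma arm as described by the study rests on 1 stem cell line, and progenitors were sorted as EGFP+ CD31- CD45- cells with α7-integrin and VCAM-1 on their surface. The expanded groups shared the same gelatin-coated plates and expansion medium, whereas the fresh groups had not been cultured. Whether the 2 replicates of a group came from separate animals is not given in the sources used here, so p-values measure the spread between these libraries.

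Libraries held between 11930961 and 21146632 estimated counts. Replicates differed by more than counting noise in every group, least in TE and most in SE, with a chi-square per degree of freedom of 11.7 and 87.2. Levels below are normalized counts, which are counts divided by a median-ratio size factor of the library, and log2 fold changes come from edgeR (quasi-likelihood), fitted once to all 8 libraries. A gene was called higher or lower where its adjusted p-value was below 0.05 and its fold change passed the threshold of the study. In bulk RNA such as this, fewer cells of a type and less RNA per cell cannot be told apart.

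Myogenic marker genes were present in every group, with 10 of 10 above the detection floor of 3 counts in TF and SF, 9 of 10 in SE and 8 of 10 in TE, where Chrdl2 was at 0. Fresh libraries also held counts of genes that mark other cell types, although the gate (CD31- and CD45-, α7-integrin+ and VCAM-1+, and EGFP+ for teratoma-derived cells) selects against such cells, and whether the sorted cells themselves express these genes was not tested. The 8 fibro-adipogenic markers summed to between 21280 and 88900 normalized counts in the fresh libraries and to between 201 and 1230 in the expanded ones, where 3 of 8 were above the floor, Clec3b was at 0 in both groups, Dpt in TE and Lum in SE. The 8 endothelial markers summed to between 1235 and 6542 in the fresh and to between 13.1 and 36.9 in the expanded libraries, where 1 of 8 was above the floor and Kdr, Tie1, Cldn5 and Emcn were at 0. Haematopoietic markers summed to 7449 in TF replicate 1, to between 644 and 987 in the other fresh libraries, and to between 47.5 and 168 in the expanded libraries, where Ptprc and Adgre1 were at 0. Pericyte and smooth muscle markers summed to between 17950 and 31100 in fresh and to between 4423 and 5055 in expanded libraries. Of these 8 markers, 6 were above the floor in TE and 5 in SE, with Kcnj8 at 0 in both and Rgs5 in TE. Notch3 was the largest part of the expanded sums, at 3226 and 3155 in TE and 2630 and 2322 in SE. Schwann cell markers summed to between 4110 and 7596 in fresh and between 8901 and 15050 in expanded libraries. Ncam1 alone had between 8866 and 14974 in the expanded libraries. Pluripotency markers stayed at or below 458 in sum, with Pou5f1 and Sox2 at 0 in TE and SE. These marker levels moved with every comparison of fresh with expanded cells given below. The fibro-adipogenic sum also moved with origin in fresh cells (78560 and 88900 in TF, 21280 and 35310 in SF). That difference was largest in Col15a1 (48802 and 58920 in TF, 5119 and 8393 in SF). The means of Pdgfra, Lum, Pi16 and Clec3b were also higher in TF. Dcn (means of 12872 in TF and 12939 in SF) and Ly6a (185 and 189) were near level, and Dpt was lower in TF (3583 against 4229). The part of these marker levels in the comparisons was not tested.

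The 250 bases upstream of the RefSeq start are shown for Spry1, for Il17rd, whose levels lay nearest to those of Spry1 among the set, and for Dusp6, which moved the opposite way in satellite cells (RefSeq, GRCm38.p6). They are chr3:37639697-37639946, chr14:27038751-27039000 and chr10:99262981-99263230, all on the + strand, written 5′ to 3′ with E-boxes (CANNTG, the motif of MyoD-type factors) in capitals.
Spry1: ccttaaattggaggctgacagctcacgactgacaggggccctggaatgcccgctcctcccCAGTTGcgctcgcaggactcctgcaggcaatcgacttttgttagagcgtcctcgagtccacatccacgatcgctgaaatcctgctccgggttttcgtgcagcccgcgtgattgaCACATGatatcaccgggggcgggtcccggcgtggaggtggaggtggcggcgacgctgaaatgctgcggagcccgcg
Il17rd: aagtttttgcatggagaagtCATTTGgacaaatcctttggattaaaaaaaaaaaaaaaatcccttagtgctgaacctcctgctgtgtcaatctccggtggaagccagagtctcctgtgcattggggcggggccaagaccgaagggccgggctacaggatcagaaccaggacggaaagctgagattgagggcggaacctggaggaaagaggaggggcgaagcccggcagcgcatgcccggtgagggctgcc
Dusp6: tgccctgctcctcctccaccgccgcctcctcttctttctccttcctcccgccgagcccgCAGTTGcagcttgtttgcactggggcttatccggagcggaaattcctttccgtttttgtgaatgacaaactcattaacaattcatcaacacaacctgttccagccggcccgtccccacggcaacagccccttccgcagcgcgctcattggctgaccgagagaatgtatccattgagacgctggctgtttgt
Of the 10 genes, 8 had an upstream sequence in that table. Spry1 held 2 E-boxes, Il17rd, Spry2, Spred3 and Dusp6 held 1 each, and Spred1, Spred2 and Dusp5 held 0. An E-box was present in 66.2% of all 32851 upstream sequences of that length, so its presence sets none of these genes apart. No match was found in the 8 sequences, on either strand, for the cyclic AMP response element (TGACGTCA), an ETS element (CCGGAAGT) or the AP-1 element (TGANTCA), which were present in 1.55%, 2.88% and 6.75% of all upstream sequences. The letters searched for do not overlap between motifs in these 8 sequences.

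Spry1 lies on chromosome 3 (chr3:37639947-37644598, + strand, GRCm38) and encodes the Sprouty protein known from quiescent satellite cells. Its normalized counts were 2347 and 2693 in TF, 1107 and 1301 in TE, 3141 and 3343 in SF, and 157 and 436 in SE. The 4 groups did not overlap and stood in the order SF, TF, TE and SE, with the SF mean 10.9 times the SE mean. TF and SF, neighbours in that order, differed by a log2 fold change of -0.20 with a 95% confidence interval from -1.03 to 0.62. With expansion, Spry1 changed by -1.01 ± 0.37 (SE of the log2 fold change, n = 2 per group) in teratoma-derived cells and by -3.26 ± 0.40 in satellite cells. Of the 31-base words of its transcripts, 23.1% also occur in the transcript annotated as Gm42922, a symbol absent from the count table, and none occur in another of the 10 genes.

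Spry2, a paralog that inhibits the same route, lies on chromosome 14 (chr14:105891947-105896819, - strand, GRCm38). Its normalized counts were 1309 and 1259 in TF, 1001 and 1065 in TE, 2104 and 2569 in SF, and 2090 and 1467 in SE. Both expanded satellite cell libraries thus lay below both fresh ones, but by a small margin. Spry2 was not called for expansion in either origin, with log2 fold changes of -0.26 (95% confidence interval -0.74 to 0.22) in teratoma-derived and -0.21 (-0.68 to 0.27) in satellite cells. These intervals leave out a change of the size seen for Spry1 in satellite cells, whose interval ran from -4.17 to -2.35. The clearest contrast for Spry2 was one of origin, since it was lower in TF than in SF (log2 fold change -0.71 ± 0.21, edgeR's quasi-likelihood test, adjusted p = 0.0394). That call was lost without either TF replicate, either TE replicate or SF replicate 2 and under a replicate block, with adjusted p-values between 0.0528 and 0.187.

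Spry4, the Sprouty gene on chromosome 18, had the same order of group means as Spred1. It was measured at 972 and 1055 normalized counts in TF, 501 and 354 in TE, 1555 and 1990 in SF, and 843 and 277 in SE. Both expanded groups lay below both fresh groups, and the SE replicates spanned the TE replicates. Spry4 was lower in SE than in SF (log2 fold change -1.48 ± 0.43, adjusted p = 0.0210). In teratoma-derived cells the change was -1.19 ± 0.43 (adjusted p = 0.0679). That change passed both thresholds without the filter on low counts, with DESeq2 and with only the groups compared in the fit. The test of the difference between the expansion effects gave 0.29 with an interval from -1.05 to 1.62. The call in satellite cells was lost without SF replicate 2 (adjusted p = 0.0711) and with only the groups compared in the fit (0.0551).

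**Figure D1:**
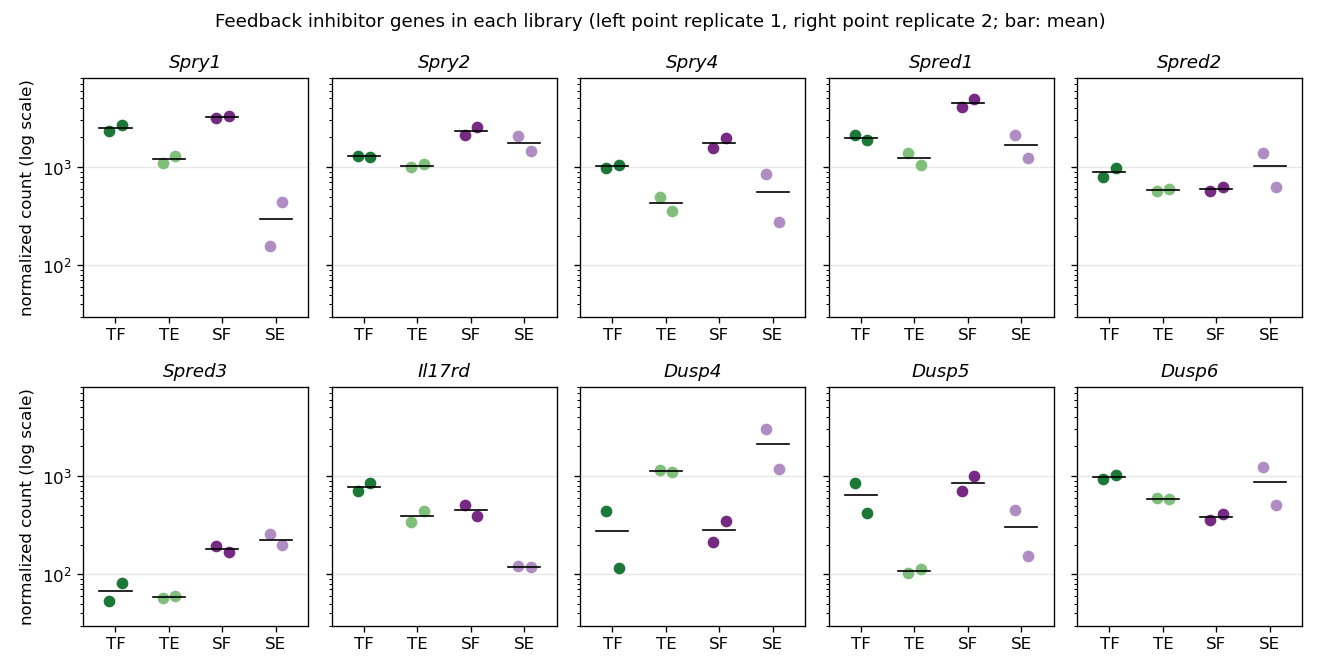
Normalized counts of the 10 genes in the 8 libraries, on a log axis, with replicate 1 as the left point, replicate 2 as the right point and a bar at the mean of each group. Spry1 reaches its lowest level in SE (157 and 436), whereas Spry2 stays between 1001 and 2569 in all libraries and Dusp4 is highest in the expanded groups.

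Because longer transcripts collect more reads, levels were compared between genes per kilobase of each gene's median annotated transcript. On that scale Spry1 and Spry2 together made up most of the Sprouty RNA in every group. The share of Spry1 was 53.2% and 56.8% in TF, 43.3% and 47.3% in TE, 48.7% and 45.0% in SF, and 5.1% and 18.8% in SE. Spry2 took 77.8% ± 3.96 (SD, n = 2) in SE, against 39.9% ± 1.64 in SF. Spry2 was thereby the most abundant Sprouty gene in SE and Spry1 the most abundant in TF and SF. In TE the difference between the pair was within the spread of the replicates (45.3% ± 2.84 for Spry1 and 46.3% ± 0.36 for Spry2). With the longest transcript in place of the median, Spry1 and Spry2 took 52.3% and 35.5% in TF and 10.9% and 78.8% in SE. On that length they took 44.1% and 42.0% in SF and 42.5% and 48.6% in TE. The lead of Spry1 in SF thus narrowed, and Spry2 led in TE. The summed Sprouty level was 1070 ± 55.3 normalized counts per kilobase in TE and 1089 ± 216 in SE, so the expanded groups overlapped in total while they differed in composition. It was 1844 ± 94 in TF and 2799 ± 280 in SF. The sum of Spry2 and Spry4 alone was 1335 and 1649 in SF and 1178 and 761 in SE, against 5.1% and 18.8% of the Sprouty level left for Spry1 there. The fewest counts of the family were those of Spry3, the remaining Sprouty gene, which was listed at 0 in 4 of 8 libraries and at 1.43, 2.57, 14.8 and 55.4 normalized counts in the others.

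**Figure D2:**
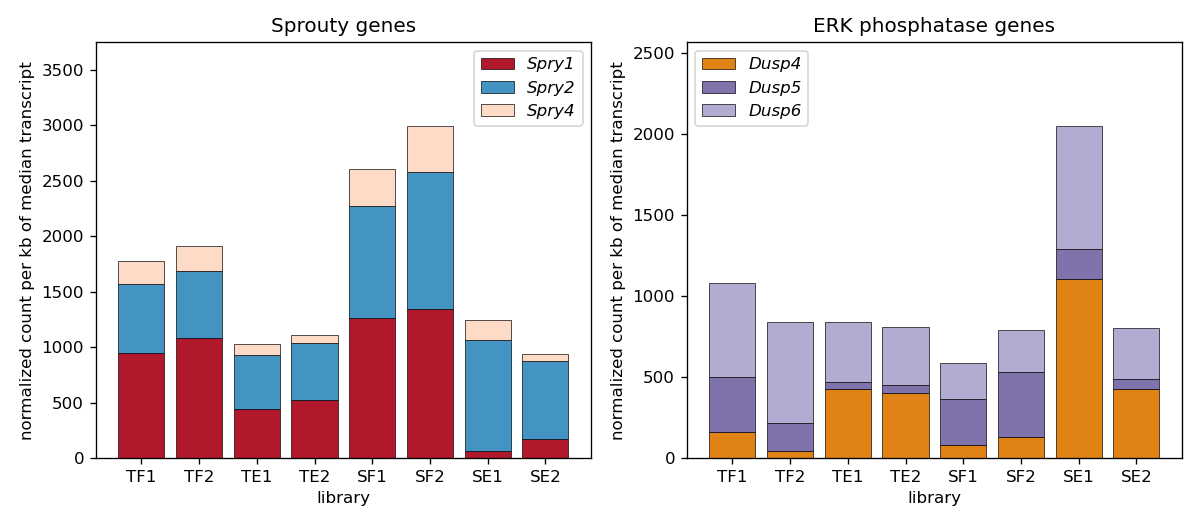
Stacked levels per library in normalized counts per kilobase of the median transcript, for the Sprouty genes on the left and the ERK phosphatase genes on the right. The Spry1 segment is small in SE1 and SE2 while the Spry2 segment is not, and the Dusp4 segment is largest in the TE and SE libraries.

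Spred1 (chr2:117121374-117182279, + strand, GRCm38), whose protein brings neurofibromin to RAS, was the most abundant Spred gene in all groups. Its normalized counts were 2101 and 1897 in TF, 1399 and 1048 in TE, 4079 and 4948 in SF, and 2141 and 1227 in SE. It stood highest in SF, and the SE replicates spanned the TF and the higher TE value. Spred1 was lower in SE than in SF (log2 fold change -1.23 ± 0.28, adjusted p = 0.00585) and also lower in TF than in SF (-1.02 ± 0.27, adjusted p = 0.0242), the latter not holding without either TF replicate or SF replicate 2. In teratoma-derived cells its change with expansion was -0.65 ± 0.27 (adjusted p = 0.108). This change passed both thresholds without the filter on low counts, with DESeq2 and with only the groups compared in the fit.

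Spred2 (chr11:19924375-20024026, + strand, GRCm38), a paralog of Spred1 with the same known role, did not follow it. It was measured at 784 and 978 normalized counts in TF, 569 and 598 in TE, 567 and 631 in SF, and 1399 and 633 in SE. Only 1 of the SE libraries stood clearly above SF, since the other, at 633, was level with SF replicate 2 at 631. Spred2 was called higher in SE than in SF (log2 fold change 0.95 ± 0.33, adjusted p = 0.0434), but the change was 0.30 (adjusted p = 0.466) without SE replicate 1. The call was also lost without either SF replicate and under 4 other settings, with adjusted p-values between 0.0567 and 0.168. In teratoma-derived cells the change was -0.54 ± 0.33, and the test of the difference between the expansion effects gave -1.49 ± 0.47 (adjusted p = 0.0617).

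Spred3 (chr7:29158829-29170411, - strand, GRCm38), the third paralog, was the lowest of the Spred genes throughout and differed by origin. It was measured at 53.2 and 81.2 normalized counts in TF, 56.9 and 59.4 in TE, 194 and 167 in SF, and 254 and 197 in SE. Every satellite cell library lay above every teratoma-derived library. Spred3 was lower in TE than in SE (log2 fold change -1.93 ± 0.46, adjusted p = 0.0345), and its difference between TF and SF was -1.26 ± 0.46 (adjusted p = 0.0728). Its share of the Spred RNA per kilobase was 15.9% ± 3.82 in SE and 6.6% ± 0.86 in TE. The call between the expanded groups was lost without either TE or either SE replicate and under a replicate block (adjusted p between 0.0509 and 0.216).

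Il17rd (chr14:27038941-27107286, + strand, GRCm38) encodes the Sef protein, an antagonist of FGF receptors. Its normalized counts were 712 and 842 in TF, 340 and 436 in TE, 510 and 391 in SF, and 120 and 119 in SE. The SE libraries stood apart below the other 6, and TE and SF overlapped. Il17rd was lower in SE than in SF (log2 fold change -1.72 ± 0.27, adjusted p = 0.00086) and in TE than in TF (-0.95 ± 0.26, adjusted p = 0.0244). It was higher in TE than in SE by 1.72 ± 0.27 (adjusted p = 0.0051). The test of the difference between the expansion effects gave 0.77 ± 0.37 (adjusted p = 0.202). Without any 1 of the 4 TF and TE libraries the change from TF to TE was between -1.11 and -0.75, with adjusted p-values between 0.0671 and 0.258.

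The nuclear phosphatase gene Dusp4 (chr8:34807297-34819894, + strand, GRCm38) rose with expansion in both origins. The libraries held 438 and 114 normalized counts of it in TF, 1164 and 1102 in TE, 215 and 348 in SF, and 3027 and 1169 in SE. Every expanded library lay above every fresh library. The log2 fold change was 2.10 ± 0.59 in teratoma-derived cells (adjusted p = 0.0272) and 3.08 ± 0.61 in satellite cells (adjusted p = 0.00318), and the difference between them, -0.98, had an interval from -2.79 to 0.83. The TF replicates were 3.82-fold apart, and without the lower of them the change in teratoma-derived cells was 1.46 (adjusted p = 0.0703).

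Dusp5 (chr19:53529109-53542431, + strand, GRCm38), the other nuclear ERK phosphatase gene, went the opposite way to Dusp4. It was measured at 845 and 425 normalized counts in TF, 103 and 114 in TE, 705 and 1004 in SF, and 452 and 155 in SE. Both TE libraries lay below all others, and both SE libraries lay below both SF libraries. Dusp5 fell by 2.49 ± 0.51 on the log2 scale from TF to TE (adjusted p = 0.0064), and its change from SF to SE was -1.31 ± 0.49 (adjusted p = 0.0566). That second change passed the threshold with median-ratio size factors, without the filter on low counts, with DESeq2, under a replicate block and without 5 of the 8 libraries in turn. Of its 31-base words, 21.2% also occur in the transcript annotated as AC137853.2, which is absent from the count table.

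Dusp6 (chr10:99263231-99267489, + strand, GRCm38) encodes the cytoplasmic phosphatase that is specific to ERK. Levels were 931 and 1016 normalized counts in TF, 600 and 581 in TE, 357 and 413 in SF, and 1235 and 508 in SE. Both TE libraries lay below both TF libraries, while both SE libraries lay above both SF libraries. Dusp6 was higher in SE than in SF (log2 fold change 1.37 ± 0.36, adjusted p = 0.0129), and its change from TF to TE was -0.67 ± 0.35 (adjusted p = 0.185). The difference between the expansion effects was -2.03 ± 0.50 (adjusted p = 0.0249), and TF was higher than SF by 1.5 ± 0.36 (adjusted p = 0.0148, and 0.0865 without SF replicate 1). Without SE replicate 1 the change in satellite cells was 0.62 (adjusted p = 0.115), and without SF replicate 1 it was 1.24 (0.0751). The difference between the effects was also lost without either TE replicate or SF replicate 1 (adjusted p between 0.0538 and 0.0724).

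Per kilobase, Dusp4 took the largest share of the phosphatase genes in both expanded groups and the smallest in both fresh groups. Of the summed level of Dusp4, Dusp5 and Dusp6, Dusp4 took 9.9% ± 6.98 in TF and 14.8% ± 1.88 in SF. It took 50.3% ± 0.65 in TE and 53.5% ± 0.53 in SE. Dusp5 took 26.1% ± 8.02 and 50.1% ± 1.92 in the fresh groups and 5.4% ± 0.51 and 8.3% ± 0.80 in the expanded groups. Dusp6 took 44.4% ± 0.14 in TE and 38.2% ± 1.34 in SE. In sum, SE replicate 1 held 2051 normalized counts per kilobase and the other 7 libraries held between 584 and 1077.

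Over the set, expansion of teratoma-derived cells called 1 gene higher (Dusp4) and 2 lower (Il17rd and Dusp5), where 9.86% of all tested genes were called higher and 16.2% lower. Expansion of satellite cells called 3 higher (Spred2, Dusp4 and Dusp6) and 4 lower (Spry1, Spry4, Spred1 and Il17rd), against 20.9% and 19.8% of all tested genes. The median log2 fold change of the set was -0.66 and -0.72 in the 2 comparisons, beside -0.18 and -0.23 over all tested genes. Il17rd was called lower and Dusp4 higher in both origins. A test of the difference between the 2 effects of expansion called Spry1 (2.25 ± 0.53, the satellite cell decrease being the larger) and Dusp6, that is 1 gene in each direction, against 4.7% of all tested genes higher and 9.62% lower.

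**Figure D3:**
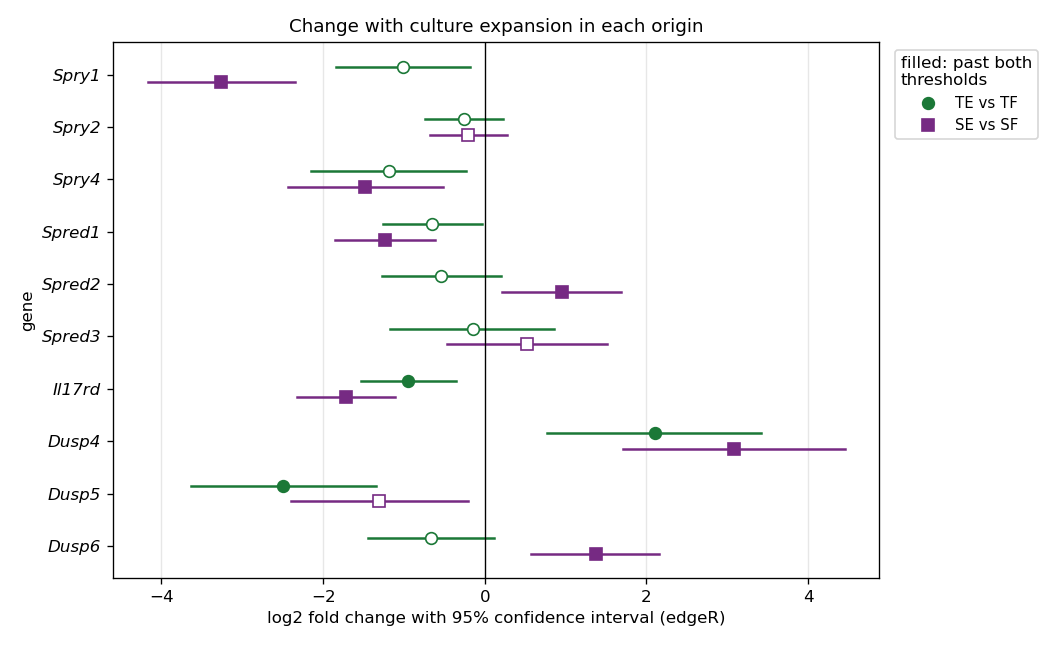
Log2 fold change with expansion for each gene, TE against TF as circles and SE against SF as squares, with 95% confidence intervals from edgeR. Filled symbols passed the adjusted p and fold change thresholds, the 2 intervals of Spry1 do not meet, and those of Spry2 lie on both sides of 0.

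Between origins, Spry1 and Il17rd stood higher in expanded teratoma-derived cells while the other Sprouty genes did not. TE against SE called Spry1 and Il17rd higher and Spred3 lower, where 3.15% of all tested genes were called higher and 4.07% lower. Spry1 was higher in TE by 2.04 ± 0.39 on the log2 scale, whereas Spry2 (-0.76 ± 0.21, adjusted p = 0.0668) and Spry4 (-0.36 ± 0.42) had estimates of the other sign. The Spry1 call was lost with only TE and SE in the fit. TF against SF called Il17rd and Dusp6 higher and Spry2 and Spred1 lower, against 15.1% and 9.13% of all tested genes. In the same comparison 11 of 12 differentiation and 9 of 10 proliferation genes were called higher in TF. The fibro-adipogenic marker sum was higher there too, with Col15a1 as its largest part, as given above. The part of these states and markers in the 4 calls was not tested. With median-ratio size factors the calls over all genes in that comparison split 2110 higher to 1943 lower in place of 2655 to 1606, and Il17rd (0.78, adjusted p = 0.0571) was no longer called. Il17rd was the 1 gene of the set called for origin in both states, with 0.95 ± 0.26 in fresh cells (adjusted p = 0.0268), though that call was lost in 8 of 13 alternatives.

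**Figure D4:**
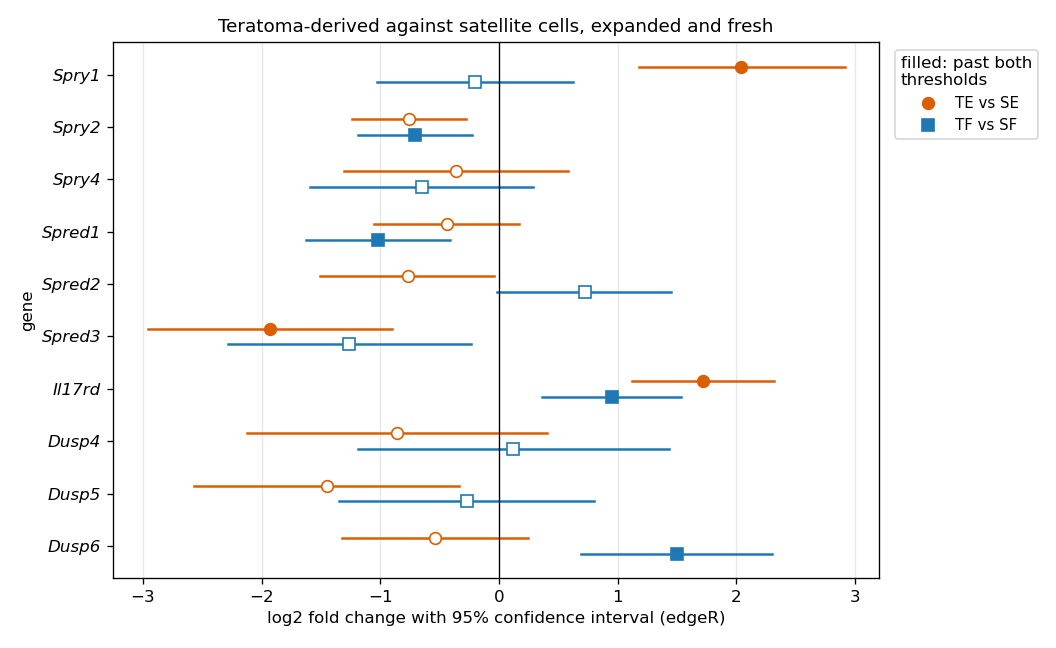
Log2 fold change of teratoma-derived over satellite cells for each gene, expanded cells (TE against SE) as circles and fresh cells (TF against SF) as squares, with 95% confidence intervals and filled symbols for calls. Spry1 stands at 2.04 in expanded and at -0.20 in fresh cells. Il17rd is above 0 in both, and Spry2, Spry4, Spred1, Spred3 and Dusp5 are below 0 in both.

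TF was also set against SE, a comparison that the study makes. This pair differs in both culture and origin, so the 2 cannot be told apart in it. Spry1 and Il17rd were higher and Spred3 and Dusp4 lower in TF, against 14.5% of all tested genes called higher and 9.16% lower. The Spred3 call (log2 fold change -1.78, adjusted p = 0.0202) was lost without TF replicate 1 or SE replicate 1 (0.115 each). Il17rd differed by 2.66 ± 0.28 (adjusted p = 0.000132) and Dusp4 by -2.96 ± 0.61 (adjusted p = 0.00683). The comparisons with SE share the SE libraries, and those with TF share the TF libraries, so their values are not independent of each other.

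The SE replicates differed by more than those of any other group, and in this set mostly in 1 direction. Of the 10 genes, 9 were higher in SE replicate 1 than in SE replicate 2, and 6 of the 10 were over 2-fold apart, against 1 in TF and 0 in TE and SF. The same counts were not made over all tested genes, so whether the set stands apart in this is not known. Spry4 was 3.04-fold, Dusp5 2.93-fold, Dusp4 2.59-fold, Dusp6 2.43-fold and Spred2 2.21-fold higher in SE replicate 1. Spry1 was the exception, with replicate 1 at 0.361 times replicate 2, and Il17rd was level at 120 and 119. The same library held a summed level of 25650 normalized counts over 10 proliferation genes, against 11050 in SE replicate 2, and 188700 against 373800 over 12 differentiation genes, and the part of these states in the spread was not tested.

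How close each gene came to Spry1 was measured as the root mean square difference of log2(normalized count + 1) over the 8 libraries, each gene centred on its own mean. Il17rd was the nearest of the set at 0.743, and 0.825% of the other 17581 tested genes were nearer to Spry1 than Il17rd was. Spry4 followed at 1.23, Spred1 at 1.30, Dusp5 at 1.48 and Spry2 at 1.53, with 11.5%, 14.9%, 27.7% and 32.3% of genes nearer. Dusp4 was the farthest at 2.81, with 94.1% of genes nearer. Il17rd, which is not a paralog, thus lay nearer to Spry1 than Spry2 and Spry4 did.

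Over all tested genes, those nearest to Spry1 were Zdbf2 (0.220), Sptb (0.257), Otoa (0.264), Setbp1 (0.277) and Heyl (0.327). Zdbf2 is an imprinted gene, Sptb encodes the erythroid and muscle beta spectrin, and Heyl is a target of Notch signalling. Zdbf2 was measured at 2128 and 2321 normalized counts in TF, 1251 and 962 in TE, 2104 and 2630 in SF, and 148 and 409 in SE. Heyl had 4014 and 5282 in TF, 1355 and 1575 in TE, 3181 and 3284 in SF, and 230 and 626 in SE. Both thus shared with Spry1 the higher value in SE replicate 2 and the lowest level in SE. These genes were picked for likeness over the same 8 libraries, which include the replicate spread, so their own group differences are not tested here.

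**Figure D5:**
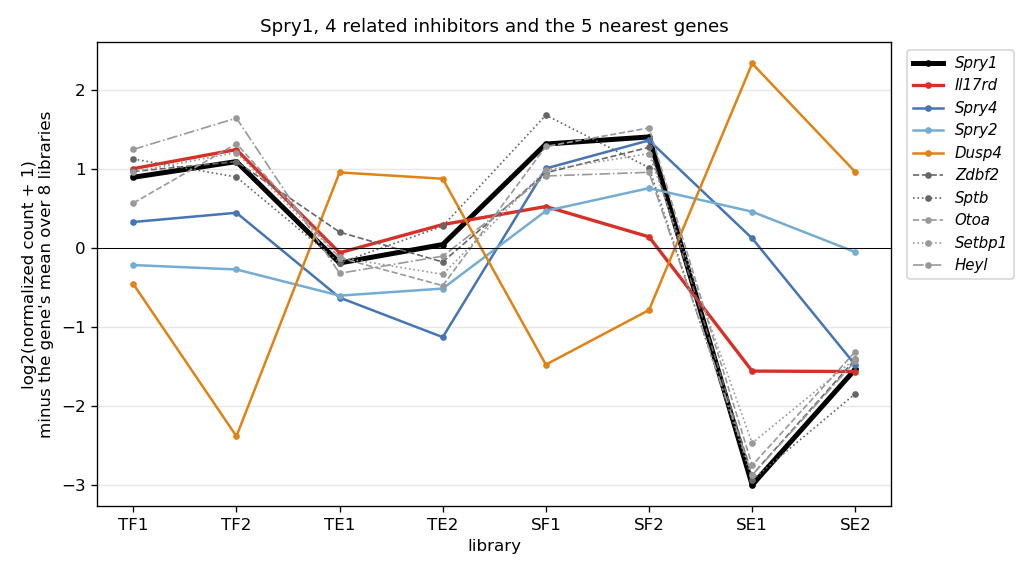
Centred log2 levels of Spry1 (black), 4 other inhibitor genes (colours) and the 5 nearest genes (grey) in the 8 libraries, where lines join the points of a gene and libraries have no order within a group. Il17rd lies nearest to Spry1 among the inhibitors, Spry2 stays near 0 and Dusp4 runs the opposite way.

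The counts of called genes in the pathway, differentiation and proliferation lists that follow stand beside the shares over all tested genes. These were 9.86% called higher and 16.2% lower in TE against TF, and 20.9% and 19.8% in SE against SF. Upstream of the inhibitors are the ligands and receptors. Of 19 ligand genes, 1 was called higher and 6 lower in TE against TF, and 2 higher and 6 lower in SE against SF. Hgf, the ligand of Met, had 77.9 and 82.4 normalized counts in TF and 0 in both TE libraries, and 201 and 147 in SF against 281 and 114 in SE. The growth factor gene Igf2 was called higher in SE than in SF (4.15 ± 0.46, adjusted p = 0.000113), and Fgf1 fell by 3.50 ± 0.51 from TF to TE (adjusted p = 0.000893). Of 14 receptor genes, 2 were higher and 7 lower in TE against TF, and 4 higher and 7 lower in SE against SF, with medians of -1.96 and -1.48. Fgfr1, a main FGF receptor of myogenic cells, was lower in both origins (log2 fold changes -2.29 ± 0.22 and -2.59 ± 0.22), as was Egfr (-5.30 ± 0.30 and -2.84 ± 0.26). Pdgfra, which also marks fibro-adipogenic cells, fell from 4160 and 4320 to 8.99 and 3.08 in teratoma-derived cells and from 1440 and 2120 to 40.1 and 21.5 in satellite cells.

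The cascade itself runs from adaptors through RAS and RAF to ERK. Of 24 genes of this route, 6 were called higher and 3 lower in TE against TF and 5 higher and 5 lower in SE against SF, with medians of 0.40 and 0.32. The counts in SE against SF and the count of lower genes in TE against TF were near the shares over all tested genes. The adaptor gene Gab1 was lower after expansion in both origins, with log2 fold changes of -2.11 ± 0.27 and -3.04 ± 0.28. Braf, which encodes a RAF kinase, and Rps6ka3, which encodes a kinase activated by ERK, were lower in SE than in SF (-2.03 ± 0.20 and -2.08 ± 0.23), while their changes in teratoma-derived cells were -0.47 ± 0.19 (adjusted p = 0.0992) and 0.26 ± 0.22 (adjusted p = 0.418).

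Of 22 genes that ERK is known to induce, 1 was higher and 15 lower in TE against TF, and 3 higher and 15 lower in SE against SF, with medians of -1.84 and -2.61. The immediate early genes led, with Fosb at 33400 and 36600 normalized counts in TF and 30.7 and 31.6 in TE, and at 41800 and 47200 in SF and 23.6 and 21.5 in SE. Fos was lower in both, with log2 fold changes of -7.24 ± 0.28 in teratoma-derived and -6.95 ± 0.27 in satellite cells, as was Junb with -4.79 ± 0.25 and -5.25 ± 0.26. The 3 called higher in SE against SF were Etv1 (2.24 ± 0.35), Etv4 (2.42 ± 0.57) and Ccnd1 (3.93 ± 0.425). Ccnd1 was also the 1 called higher in TE against TF (1.95 ± 0.39), where Etv1 (0.09) and Etv4 (0.18) were not called. Fresh cells had been dissociated and sorted and expanded cells had been cultured, so the immediate early levels of the groups cannot be told apart from that handling.

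Of 25 other inhibitors of the route, 0 were called higher and 5 lower in TE against TF (0 higher by DESeq2 too, and 1 at an unadjusted p below 0.05), and 6 higher and 9 lower in SE against SF. The count lower in TE against TF and the count higher in SE against SF were near the shares over all tested genes. Sulf1, which trims the heparan sulfate that FGF needs, had log2 fold changes of -3.95 ± 0.23 and -2.29 ± 0.21 in the 2 origins, and Lrig1, which limits ErbB receptors, of -1.38 ± 0.18 and -2.45 ± 0.19. The phosphatase gene Dusp1, itself an immediate early gene, was lower too (-4.38 ± 0.33 and -3.94 ± 0.33). Among 9 genes for Sprouty partners and regulators, 1 was lower in TE against TF, and 2 were higher and 2 lower in SE against SF, the latter near the shares over all tested genes. The caveolin gene Cav1 was lower after expansion in both origins (-3.15 ± 0.33 and -4.08 ± 0.34). Siah2, a ubiquitin ligase gene, fell by 2.44 ± 0.30 in satellite cells, and Egln1, a prolyl hydroxylase gene, rose there by 1.66 ± 0.18.

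The state of the cells changed along with the inhibitors. Of 12 differentiation genes, 10 were called higher in TE against TF and 11 in SE against SF, with Myog, a regulator of terminal myogenic differentiation, at 1330 and 1450 in TF, 11200 and 11800 in TE, 8.92 and 14.8 in SF, and 3990 and 13500 in SE. Mymk, which encodes the fusion protein Myomaker, rose by 4.16 ± 0.42 and 7.73 ± 0.53, and the myosin light chain gene Mylpf by 3.02 ± 0.40 and 7.30 ± 0.51. Of 10 proliferation genes, 9 were higher in SE than in SF, among them Mki67 (5.17 ± 0.42), Top2a (5.08 ± 0.40) and Ccna2 (4.55 ± 0.37). In TE against TF 0 of the 10 were called by edgeR or DESeq2, with 1 at an unadjusted p below 0.05 and 3 called without the filter on low counts. Between TE and SE, the pair in which Spry1 and Il17rd differed, 0 of the 12 differentiation genes were called by edgeR (1 by DESeq2, and 2 at an unadjusted p below 0.05), but without the filter on low counts 1 was called higher and 4 lower in TE. Of the 10 proliferation genes 0 were called by either tool, with 1 at an unadjusted p below 0.05. In TE against SE 3.15% of all tested genes were called higher and 4.07% lower, so 0 calls in lists of this size were near those shares.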

How the data were processed

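The data were RNA-seq libraries of 8 mouse samples, made with a stranded total RNA kit for low input. The authors deposited 1 table of estimated counts for 24980 gene symbols, not normalized. Per the submitters' processing notes, CASAVA, kallisto 0.44.0 and the GRCm38 (mm10) build were used, and how transcripts were summed to genes is not given in the sources used here. Whole numbers made up 74.4% to 84.4% of a library's values, as kallisto shares reads between transcripts. The ribosomal precursor Rn45s took between 7.99% and 21.3% of a library.

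Groups were taken from the sample titles. Estimated counts were rounded, filtered with edgeR's filterByExpr (17582 genes kept), scaled by TMM and fitted once to all 8 libraries with group means only (edgeR glmQLFit and glmQLFTest, common dispersion 0.233). Calls used a Benjamini-Hochberg adjusted p below 0.05 over all tested genes and a fold change above 1.25. Normalized counts used DESeq2's median-ratio size factors. The detection floor was 3 counts per library and covers counting error only. Lengths and coordinates came from GENCODE M21 on GRCm38 and upstream sequences from RefSeq on GRCm38.p6. Levels per kilobase used the median annotated transcript. Shares of 31-base words were counted over the annotated transcripts.

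The members and all gene lists (pathway lists, differentiation, proliferation and the marker lists for myogenic, pluripotent, Schwann, fibro-adipogenic, pericyte or smooth muscle, endothelial and haematopoietic cells) were chosen with earlier results of these data known. Genes named were the 10 members, in each pathway or state list the 3 with the smallest adjusted p among those called for expansion or its difference between origins, Spry3, and the 5 genes nearest to Spry1. Also named were the ERK-induced genes called higher with expansion, and single markers that describe a marker sum. Spry1 has no p-value because the study had picked it on these libraries. Alternatives were median-ratio size factors, no filter, DESeq2, a fit restricted to the groups compared, a replicate block, each library left out, another pseudocount and TMM for distances, and the longest transcript for shares. The fits were tested on simulated data. DESeq2 1.42.0 and edgeR 4.0.16 were run in R 4.3.3.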

Additional observations from a re-analysis of the deposited data

Results flagged for a closer look

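Spry1 and Dusp6 were singled out because the test of the difference between the effects of expansion in the 2 origins passed the thresholds. For Spry1, the log2 fold change of TE over TF minus that of SE over SF was 2.25 ± 0.53, and it was between 1.69 and 3.16 with each library left out, on the same side of both thresholds each time. Spry1 was chosen by the study on these libraries, so this value describes it and is no independent support. For Dusp6 the same difference was -2.03 ± 0.50 (edgeR's quasi-likelihood test, adjusted p = 0.0249), with both TE libraries below TF and both SE libraries above SF. It was between -2.54 and -1.26 with each library left out, and its call was lost without TE replicate 1, TE replicate 2 or SF replicate 1.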

How the results depend on the processing

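The number of the 10 genes called in TE against TF, which was 3, was 6 without the filter on low counts, 6 with DESeq2 and 8 with only the groups compared in the fit, and between 1 and 7 with a library left out. For the difference between the effects of expansion, 2 became 4 without the filter and between 1 and 4 with a library left out. In TE against SE 3 became 7 without the filter, 5 with DESeq2 and between 2 and 7 with a library left out, and in TF against SF 4 became between 1 and 6. In SE against SF and TF against SE the counts stayed within 1.5 times. The TE against TF count was 1 without TF replicate 2, 6 without SE replicate 1 and 7 without SE replicate 2, that of the difference 1 without either TE replicate or SF replicate 1 and 4 without SE replicate 2, that of TE against SE 7 without SE replicate 2, and that of TF against SF 1 or 2 without any TF or TE library or SF replicate 2. The cause was not tested.

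Over all tested genes, 1268 calls in TE against SE became 2260 without the filter, 2117 with DESeq2, and 666 and 653 without TE replicates 1 and 2. Without these replicates the calls of TE against TF fell from 4581 to 2759 and 2739 and those of the difference from 2517 to 1473 and 1467, and without TF replicates 1 and 2 those of TF against SF fell from 4261 to 2639 and 2671. Median-ratio size factors moved the median log2 fold change of all genes from -0.23 to -0.43 in SE against SF, from -0.18 to -0.04 for the difference and from 0.08 to -0.08 in TF against SF. The split of calls with DESeq2 was 3279 higher to 4884 lower in SE against SF, 1493 to 1908 for the difference and 2443 to 2598 in TF against SF.

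Direction turned for the following estimates, none of which was called in the main fit to all 8 libraries, though some were in other settings. Dusp4 in TF against SF (0.12) was -0.03 with DESeq2 and likewise with median-ratio scaling, and the Spry2 difference (-0.05) was 0.08 with both. With a library left out, values ran from -1.14 to 0.78 for Dusp4, from -0.85 to 0.13 for Dusp5 in TF against SF, from -1.63 to 0.29 for the Dusp4 (-0.98 with all libraries), from -0.29 to 0.23 for the Spry2 and from -0.31 to 1.30 for the Spry4 difference, from -1.03 to 0.24 for Dusp6 (-0.54 with all libraries), from -0.78 to 0.02 for Spred1 (-0.44) and from -0.95 to 0.65 for Spry4 (-0.36) in TE against SE, from -0.37 to 0.88 for Dusp6, from -0.13 to 0.64 for Spred1 and from -0.70 to 0.42 for Spred2 in TF against SE, from -0.40 to 0.22 for Spred3 in TE against TF, and from -0.46 to 0.03 for Spry2 in SE against SF.

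Replicate numbers are shared between groups. Over all tested genes, same-numbered libraries did not deviate together (correlations of deviations between -0.026 and 0.076). A link confined to few genes would not show in such a correlation, so it does not settle whether same-numbered libraries were paired. Under a replicate block, Dusp4 in TF against SF was -0.13, the calls of Spred2 in SE against SF, Spred3 in TE against SE and Spry2 in TF against SF were lost, and those of Spry1 in TE against TF and Dusp5 in SE against SF were gained. With 2 libraries per group, many changes of moderate size cannot be shown.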
